A study of Homo sapiens with 35 samples.

Results

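RPMI-8226 cells, an established line of multiple myeloma, were compared by RNA sequencing between day 4 and day 2 after a pulse of carfilzomib. The comparison took the 5 libraries labelled Day 4 and the 5 labelled Day 2, which were 10 of the 35 libraries of the course, and the entries whose transcripts are protein-coding. Of 19665 such entries, 17999 had a count in at least 1 library and were tested. Both groups had received carfilzomib at 750 nM for 1 h on day 0, after which the drug was washed out and the cells were kept in fresh medium. No culture without the drug was sampled on either day, so time in culture and time after the pulse cannot be told apart. The subcultures of both days had been split from a single culture of a single line, and samples of both days were taken shortly before a change of medium. The spread between replicates therefore covers culture, library and sequencing, and not separate experiments.

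Total counts ran from 7211378 to 10962890 on day 2 and from 6791179 to 8231162 on day 4, so single counts set the precision of the lowest entries. The 10 libraries held 81.4% to 84.9% of their counts in protein-coding entries, with means of 84.1% on day 2 and 82.4% on day 4. Of the plasma cell markers, MAF, a transcription factor driven by translocation in this line, was at 1521 ± 74.5 CPM on day 2, and SDC1, which encodes CD138, was at 335 ± 20.2 CPM (mean ± SD, n = 5). CPM, the unit of level used throughout, are given without correction for transcript length. They relate the counts of a protein-coding entry to all protein-coding counts of its library after TMM scaling. For entries of other biotypes they relate to the counts of those biotypes alone, so such levels cannot be set against those of protein-coding entries. Markers of T cells summed to 8.95 to 10.3 CPM on day 2 and 11.8 to 15.02 on day 4, with CD2 at 0 in all 10 libraries, and myeloid markers summed to at most 2.44 CPM. Markers of epithelium and stroma, with PECAM1 of endothelium and blood cells among them, summed to 323 to 367 CPM on day 2 and 427 to 479 on day 4. Of these, KRT18 was at 235 ± 14.1 and 332 ± 20.3 CPM and KRT19 at 0. The part of these markers in the results was not tested.

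Proteasomes degrade ubiquitin-tagged proteins, and plasma cells depend on them because they make large amounts of secreted protein. When proteasomes are blocked, misfolded proteins accumulate, chaperones and new proteasome subunits are transcribed, and degradation no longer returns amino acids to the cell. Kinases that sense stress, among them GCN2, which senses uncharged tRNA, phosphorylate the initiation factor eIF2, which lowers translation in general but favours translation of the transcription factor ATF4. ATF4 and its partners then switch on genes for amino acid import and synthesis, for tRNA charging and, when stress persists, for cell death. The comparison of day 4 with day 2 addresses how transcripts change as cells pass from the build-up of stress towards recovery.

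Between the days, 374 entries were higher and 183 were lower on day 4 at Q ≤ 0.05 with a fold change above 2, which is 2.08% and 1.02% of the entries tested. Q is the Benjamini–Hochberg adjusted p of the quasi-likelihood test of edgeR over all 17999 entries. Without the fold cutoff, 2494 entries (13.9%) were higher and 3013 (16.7%) were lower, and the median log2 fold change of all entries was 0. Counts of list members below use Q ≤ 0.05 alone, and these 2 percentages are the background given for them. They are taken over all 17999 entries, of which 12301 had enough counts by a filter on level. Most list members are among the 12301, where the background may be higher and is not given here. A list whose shares lie near or moderately above these percentages is thus not set apart by them. Only 102 of the higher and 49 of the lower entries changed by more than 4-fold, so most differences were small. Every day 4 library lay above every day 2 library for 251 of the 374 and below for 131 of the 183. These entries were chosen on the same libraries, so the separation is a description and adds nothing to the test. The share of all entries that were so separated is not given here. The entries that were higher were of low level on day 2, with a median of 1.36 CPM that rose to 3.68, and the lower ones went from a median of 6.15 to 2.31 CPM. In bulk RNA, fewer cells with a transcript and less of it in each cell cannot be told apart.

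**Figure D1:**
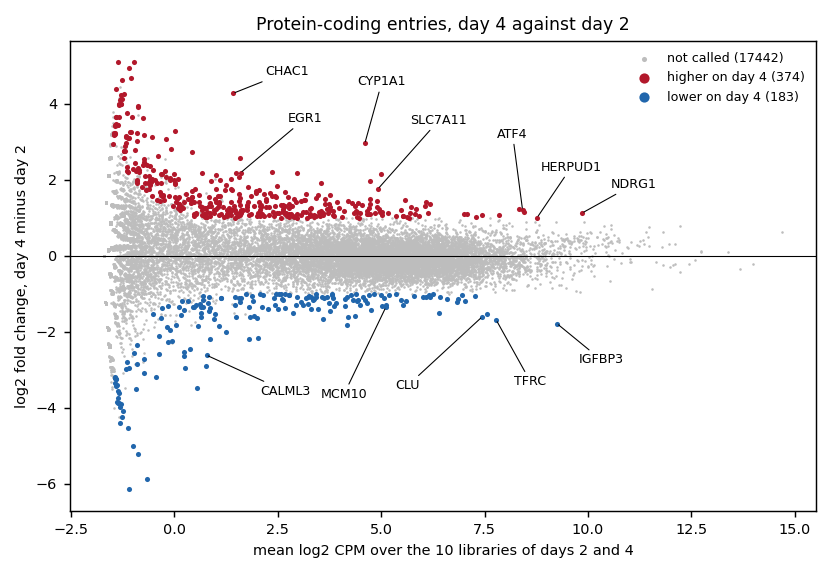
Log2 fold change of each protein-coding entry (day 4 minus day 2, vertical axis) against its mean log2 CPM over the 10 libraries (horizontal axis). Red points are the 374 entries higher and blue points the 183 lower on day 4 at Q ≤ 0.05 and a fold change above 2. CHAC1 stands apart among the rises of entries with a mean log2 CPM above 0, at a log2 fold change of 4.28, and IGFBP3, CLU and TFRC are among the largest falls in CPM of the coloured points.

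Placed on the whole course, the 277 higher entries with enough counts stood at a median log2 CPM of -1.40 ± 0.062 (SD, n = 5) relative to the day 0 mean on day 2 and of -0.18 ± 0.035 on day 4. The 139 lower entries with enough counts stood at 1.46 ± 0.077 on day 2 and at 0.20 ± 0.059 on day 4. Both sets thus lay nearer to their day 0 level on day 4 than on day 2. Because the sets were chosen on the libraries of days 2 and 4, these positions are a description without a test. Of the 374 higher entries, 104 were still below day 0 on day 4 and 63 were above it at Q ≤ 0.05, and of the 183 lower entries 52 were still above day 0 and 40 were below it.

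**Figure D2:**
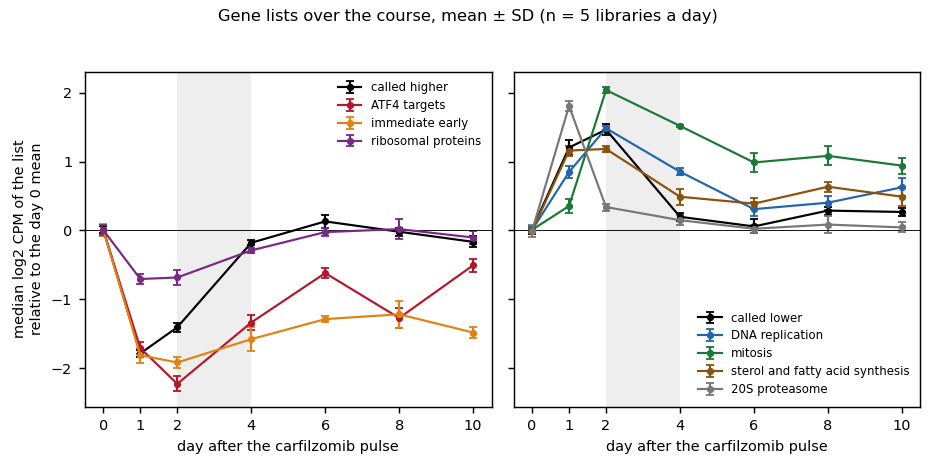
Median log2 CPM of gene lists relative to the day 0 mean (vertical axis) by day after the pulse (horizontal axis), as mean ± SD over the 5 libraries of a day, with the interval from day 2 to day 4 shaded. The ATF4 list went from -2.23 on day 2 to -1.34 on day 4 and the mitosis list from 2.04 to 1.52, while the 20S proteasome had dropped from 1.81 on day 1 to 0.34 on day 2.

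ATF4 and its effectors made up the clearest group of rises. Of 28 genes of the integrated stress response, 24 rose and 1 fell, with a median log2 fold change of 1.10, and 15 of them passed the fold cutoff. The largest rise among them was that of CHAC1, a glutathione-degrading enzyme and a sensitive target of ATF4. Its CPM were 0.287, 0.107, 0.901, 0.463 and 0.629 on day 2 and 10.2, 8.67, 9.77, 9.66 and 9.32 on day 4. The values did not overlap, and the log2 fold change was 4.28 ± 0.26 (SE, Q = 2.35e-16). The day 2 values rest on 1 to 8 counts a library, so CHAC1 was close to the lower limit of detection then, whereas day 0 stood at 14.7 ± 1.6 CPM. CHAC1 and 2 other genes taken up below illustrate the element to which ATF4 and C/EBP proteins bind, the word TGATGCAA, which was found in 304 of 35116 RefSeq promoters (0.866%) and in capitals here, searched on both strands. The promoters are those of GRCh38.p14, from 250 bases before to 50 after the start, read in the direction of transcription, of CHAC1 (chr15:40953221-40953520, plus strand), CARS (chr11:3057374-3057673, minus strand) and HERPUD1 (chr16:56931892-56932191, plus strand).
CHAC1: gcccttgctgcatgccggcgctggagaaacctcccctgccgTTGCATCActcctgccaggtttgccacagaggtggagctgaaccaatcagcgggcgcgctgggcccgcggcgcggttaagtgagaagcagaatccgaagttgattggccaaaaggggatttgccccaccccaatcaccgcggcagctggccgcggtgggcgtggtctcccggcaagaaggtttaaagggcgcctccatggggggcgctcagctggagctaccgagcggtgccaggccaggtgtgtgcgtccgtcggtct
CARS: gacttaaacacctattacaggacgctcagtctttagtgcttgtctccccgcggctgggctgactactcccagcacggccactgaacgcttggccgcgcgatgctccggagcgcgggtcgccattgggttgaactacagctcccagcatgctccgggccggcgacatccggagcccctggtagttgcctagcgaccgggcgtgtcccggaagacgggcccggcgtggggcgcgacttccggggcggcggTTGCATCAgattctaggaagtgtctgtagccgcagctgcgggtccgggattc
HERPUD1: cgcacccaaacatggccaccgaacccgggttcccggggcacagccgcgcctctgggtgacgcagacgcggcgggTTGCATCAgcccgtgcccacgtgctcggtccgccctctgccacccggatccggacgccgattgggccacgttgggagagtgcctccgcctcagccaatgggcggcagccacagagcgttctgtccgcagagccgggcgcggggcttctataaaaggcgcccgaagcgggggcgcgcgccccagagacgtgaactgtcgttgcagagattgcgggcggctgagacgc
Such a match is a description of the sequence and not a binding site. Among the 28 genes, 22 had a promoter in the table, and CHAC1 and FGF21 were the 2 that held the word. FGF21 did not pass the test (Q = 0.386). Of the 374 entries that passed the fold cutoff upwards, 283 had a promoter and 5 held the word (1.77%). For those that passed downwards it was 0 of 131. The share over all entries tested was 92 of 14186 (0.649%), so the word is too rare for these counts to set the directions apart.

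ATF4 mRNA itself was at 242, 225, 214, 224 and 222 on day 2 and 546, 501, 566, 477 and 508 CPM on day 4, which gave a log2 fold change of 1.21 ± 0.055 (SE, Q = 5.40e-20). DDIT3, which encodes the death-associated factor CHOP, was at 6.32, 4.5, 6.2, 4.94 and 3.15 on day 2 and 13.7, 13.9, 17.5, 13.2 and 20.5 CPM on day 4, and the log2 fold change was 1.63 ± 0.17 (SE, Q = 2.12e-10). SESN2, which encodes an inhibitor of mTORC1 that senses leucine, was at 15.6, 18.4, 13.4, 15.4 and 12.1 on day 2 and 70.4, 60.1, 76.3, 58 and 73.2 CPM on day 4, and its log2 fold change was 2.16 ± 0.13 (SE, Q = 5.87e-17). For all of these transcripts the lowest day 4 library lay above the highest day 2 library. Each was also still well below day 0, where means were 856 CPM for ATF4, 60.8 for DDIT3 and 247 for SESN2. ATF3, NUPR1, INHBE, STC2 and PPP1R15A, the last a subunit that directs dephosphorylation of eIF2, rose by log2 fold changes of 1.44, 1.76, 2.03, 1.11 and 1.08. ATF5, a relative of ATF4, was the exception, at 32, 30.3, 28.5, 30.4 and 30.2 on day 2 and 21.4, 15.8, 16.7, 18.7 and 17.6 CPM on day 4 (log2 fold change -0.75 ± 0.078 SE, Q = 3.46e-10).

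Genes that supply amino acids moved less evenly. Of 19 genes of serine, one-carbon, proline, asparagine and transsulfuration synthesis, 10 rose and 5 fell (median 0.24). CTH, ASNS, GPT2 and CBS, which rose, are also members of the ATF4 list, and of the other 15 genes 6 rose and 5 fell. CTH, the enzyme that makes cysteine from cystathionine, was at 4.45, 3.75, 4.62, 2.31 and 2.52 on day 2 and 19.4, 12.6, 18.7, 11.6 and 19.9 CPM on day 4 (log2 fold change 2.18 ± 0.19 SE, Q = 2.45e-12). ASNS, asparagine synthetase, was at 80.8, 90.4, 83.7, 94.5 and 84.8 on day 2 and 183, 181, 216, 168 and 189.8 CPM on day 4 (log2 fold change 1.11 ± 0.068 SE, Q = 2.81e-16). PHGDH and PSAT1, the first enzymes of serine synthesis, had log2 fold changes of 1.43 and 1.30. The folate enzymes SHMT1 and MTHFD1, which work in the cytosol, were the members that fell most, by 0.55 and 0.53, whereas the mitochondrial SHMT2 and MTHFD2 rose by 0.70 and 0.30. ASS1, argininosuccinate synthase, was among the 5 largest rises in CPM of the entries past the fold cutoff, at 217, 223, 209, 206 and 209 on day 2 and 522, 481, 567, 402 and 512 on day 4, and its log2 fold change was 1.22.

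Of 14 amino acid transporters, 8 rose and 4 fell. SLC7A11, the cystine importer and also a member of the ATF4 list, was at 14.2, 13.7, 16.4, 18.8 and 19.7 on day 2 and 41.6, 57.2, 63.9, 49.6 and 66.5 CPM on day 4, all day 4 values lying above those of day 2 (log2 fold change 1.76 ± 0.10 SE, Q = 5.29e-17). SLC38A5, a glutamine and serine carrier, went the other way, at 369, 425, 396, 375 and 392 on day 2 and 232, 203, 195, 228 and 196 CPM on day 4 (log2 fold change -0.89 ± 0.057 SE, Q = 7.98e-16).

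The cytosolic aminoacyl-tRNA synthetases, which charge tRNA, split: 12 of 20 rose, 7 fell and LARS did not pass the test. CARS, the cysteinyl-tRNA synthetase, was at 41.8, 38.5, 36.5, 37 and 37.9 on day 2 and 65.2, 66.5, 82.5, 74.9 and 90.5 CPM on day 4 (log2 fold change 0.99 ± 0.091 SE, Q = 1.58e-11), and GARS, SARS, AARS and YARS rose by 0.82, 0.69, 0.68 and 0.65. At the other end, FARSA, a subunit of the phenylalanyl enzyme, was at 157, 167, 152, 138 and 154 on day 2 and 116, 105, 108, 111 and 109.8 CPM on day 4 (log2 fold change -0.48 ± 0.058 SE, Q = 8.30e-09), and its partner FARSB fell by 0.27. Of the 20 genes 13 had a promoter in the table, and 6 of these held the word (46.2%), against 0.649% over all entries tested. With so few promoters the match is also given by gene. The word TGATGCAA was present in the promoters of AARS, CARS, MARS, NARS and TARS, which rose, and of IARS, which fell by 0.20. It was absent from those of EPRS and WARS, which rose by 0.27 and 0.28, and of FARSA, FARSB, HARS, KARS and RARS, which fell. In the 300 bases of CARS printed above the word stands in capitals.

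**Figure D3:**
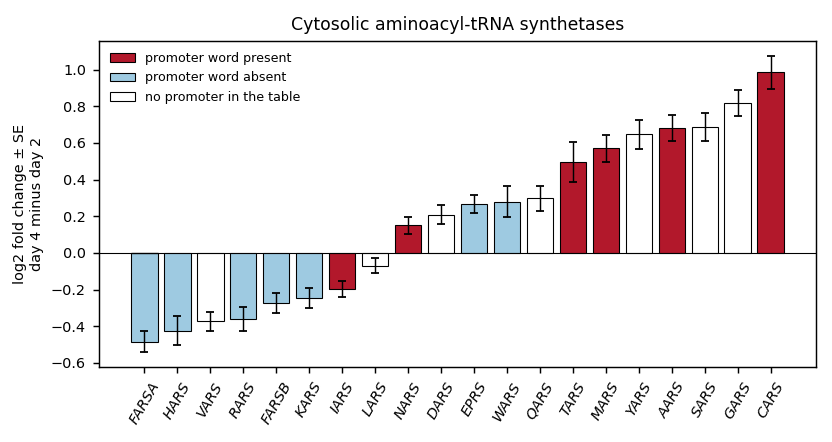
Log2 fold change with its SE (day 4 minus day 2, vertical axis) of the 20 cytosolic aminoacyl-tRNA synthetases, in rising order. Red bars are genes with the ATF4 and C/EBP word in the promoter, blue bars genes without it, and white bars genes whose promoter was not in the table. Of the 6 red bars 5 lie above 0 and IARS lies below at -0.20.

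Among the kinases and regulators of eIF2, EIF2AK4, which encodes GCN2, was at 88.8, 95.5, 99.8, 81.6 and 101 on day 2 and 148, 172, 179, 156 and 169 CPM on day 4, without overlap (log2 fold change 0.82 ± 0.058 SE, Q = 1.54e-14). EIF2AK3, which encodes the endoplasmic reticulum kinase PERK, had a log2 fold change of -0.079 (Q = 0.413), and EIF2AK2, the kinase activated by double-stranded RNA, fell by 0.37. Of 35 genes of folding and degradation in the endoplasmic reticulum, 14 rose and 7 fell (median 0.06). HERPUD1, a component of the machinery that exports misfolded proteins, was at 332, 347, 300.0, 279 and 286 on day 2 and 651, 592, 672, 609 and 577 CPM on day 4 (log2 fold change 1.01 ± 0.062 SE, Q = 2.81e-16), and ERN1, which encodes IRE1, and EDEM1 rose by 0.94 and 0.70. The chaperone HSPA5 did not pass the test (log2 fold change 0.10 ± 0.048 SE, Q = 0.124), although it did under 6 of the alternatives of processing and of libraries left out. SDF2L1, also a chaperone component, fell by 0.51.

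The BCL2 family, whose members promote or oppose apoptosis, showed 9 rises and 1 fall among 18 genes (median 0.22). The rises past the fold cutoff were all of BH3-only genes, which promote death. BBC3, which encodes PUMA and is also a member of the ATF4 list, was at 5.17, 5.36, 6.2, 5.86 and 6.45 on day 2 and 25.3, 23.6, 22.4, 17.3 and 21.2 CPM on day 4, without overlap (log2 fold change 1.92 ± 0.13 SE, Q = 1.27e-15). HRK, PMAIP1, which encodes NOXA, and BMF rose by 1.48, 1.19 and 1.13. The protective members were divided, with BCL2 and MCL1 higher by 0.77 and 0.39 and BCL2L1, which encodes BCL-XL, lower at 146, 143, 139.6, 139 and 129.8 on day 2 and 98, 84.5, 87.3, 97.3 and 80.8 CPM on day 4 (log2 fold change -0.64 ± 0.063 SE, Q = 8.43e-11).

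Immediate-early genes, which are transcribed within minutes of a stimulus, rose in 17 of 32 cases and fell in 1 (median 0.54). EGR1 was at 1.58, 1.5, 1.35, 0.617 and 1.26 on day 2 and 7.49, 5.52, 4.88, 7.29 and 4.32 CPM on day 4 (log2 fold change 2.19 ± 0.32 SE, Q = 6.30e-07), a rise without overlap that left it below its day 0 mean of 19.1. FOS, FOSB, NR4A1 and DUSP1 rose by 1.83, 2.14, 1.48 and 1.14, FOSB on only 1 to 13 counts a library. SRF, the factor that binds the promoters of many of them, fell by 0.26 on the log2 scale, and it did not pass without replicate 2 of day 2, when it fell by 0.17.

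**Figure D4:**
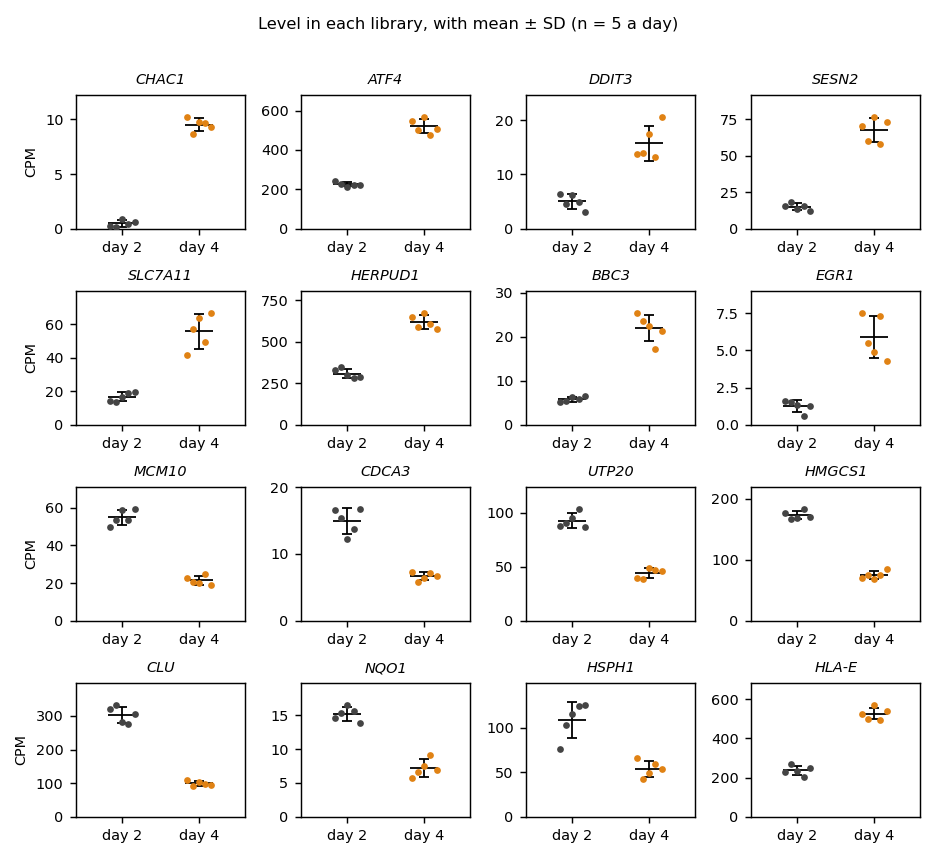
CPM (vertical axis, from 0) of 16 transcripts in each library of day 2 (grey) and day 4 (orange). Black marks give the mean and SD of 5 libraries. The transcripts were chosen with their values known, some of them because the days did not overlap, so their separation is a description without a test. In every panel the 5 values of a day lie apart from those of the other day, upwards in the ATF4 genes, BBC3, EGR1 and HLA-E and downwards in MCM10, CDCA3, UTP20, HMGCS1, CLU, NQO1 and HSPH1.

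DNA replication genes fell almost as a block. Of 53 genes for licensing, polymerases and nucleotide supply at the fork, 50 fell and 1 rose, with a median log2 fold change of -0.67. MCM10, which helps to start the helicase, was at 49.9, 53.5, 58.9, 53.4 and 59.1 on day 2 and 22.6, 20.7, 20, 25 and 18.8 CPM on day 4 (log2 fold change -1.36 ± 0.10 SE, Q = 8.35e-14). UHRF1, which couples DNA methylation to replication, and POLE2, a polymerase epsilon subunit, fell by 1.32 and 1.28. The helicase subunits MCM2 to MCM7 fell by 0.41 to 0.83, and the clamp PCNA by 0.74. The licensing factor CDT1 was the member that rose, at 54.3, 53.8, 56.7, 58 and 54.6 on day 2 and 81.9, 68.1, 61.2, 62.6 and 56.1 CPM on day 4, and without replicate 1 of day 4 it did not pass (0.16). These falls started from a raised level, since the list stood at a median of 1.48 ± 0.030 above the day 0 mean on day 2 and at 0.85 ± 0.055 on day 4 (log2, SD, n = 5).

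Mitotic genes fell less, in 55 of 64 cases with a median of -0.52 and with none rising. CDCA3, which acts in the removal of the mitosis inhibitor WEE1, was at 16.6, 15.4, 12.3, 13.7 and 16.7 on day 2 and 7.33, 5.83, 6.46, 7.13 and 6.73 CPM on day 4 (log2 fold change -1.16 ± 0.19 SE, Q = 6.84e-06), and its log2 fold change was -0.77 when reads assigned to its other transcript biotypes were added, since protein-coding transcripts held 49.96% of its counts on day 2. The mitosis list still stood at 1.52 ± 0.019 above day 0 on day 4. In the paper's cell cycle analysis of this line, day 2 was the low point of proliferation, which had started to rise by day 4. The falls of replication and mitosis transcripts thus did not follow that measure, and the reason was not tested. Of 34 genes of homologous recombination and Fanconi anemia repair, 25 fell and none rose (median -0.48), with BLM lowest at -1.10. BLM did not pass without replicate 2 of day 4 (-0.84), and its log2 fold change was -0.72 with all biotypes of the symbol added, since protein-coding transcripts held 41.3% of its counts on day 2.

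Replication and mitosis genes are known to differ in their promoters. The word TTCCCGC, a form of the E2F site, was present in 19 of the 45 replication promoters in the table (42.2%), in 7 of 54 mitosis promoters (13.0%) and in 9.02% of the promoters of all entries tested. TTTGAA, the cell cycle homology region of late cell cycle genes, was present in 36 of the 54 mitosis promoters (66.7%), in 1 of the 45 replication promoters and in 11.1% of those of all entries tested. CCAAT, the core of the NF-Y site, was found in 68.5% of mitosis and 55.6% of replication promoters against 36.3%. In the whole table of 35116 promoters the shares were 6.55%, 15.2% and 34.6%. In the 131 promoters of entries that passed the fold cutoff downwards they were 11.5%, 13.7% and 36.6%, near those of all entries tested. The shares thus describe the lists and not the falling entries as a whole. MCM10 held CCAAT but no E2F word. The promoters of UHRF1 (chr19:4909251-4909550, plus strand), CDCA3 (chr12:6851237-6851536, minus strand) and CCNB2, a B-type cyclin (chr15:59104896-59105195, plus strand), show the 3 words in capitals, on either strand, in the build and window given above.
UHRF1: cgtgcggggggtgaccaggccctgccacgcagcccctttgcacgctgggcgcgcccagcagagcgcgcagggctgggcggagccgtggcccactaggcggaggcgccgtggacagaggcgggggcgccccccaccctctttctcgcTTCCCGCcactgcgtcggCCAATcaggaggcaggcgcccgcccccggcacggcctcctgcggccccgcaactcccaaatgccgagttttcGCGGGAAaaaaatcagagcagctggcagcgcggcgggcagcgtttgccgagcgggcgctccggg
CDCA3: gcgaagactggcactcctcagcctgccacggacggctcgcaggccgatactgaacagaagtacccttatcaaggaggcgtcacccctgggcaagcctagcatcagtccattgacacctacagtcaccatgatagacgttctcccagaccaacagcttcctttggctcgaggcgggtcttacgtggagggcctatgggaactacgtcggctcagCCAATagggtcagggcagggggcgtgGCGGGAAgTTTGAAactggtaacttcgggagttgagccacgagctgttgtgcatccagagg
CCNB2: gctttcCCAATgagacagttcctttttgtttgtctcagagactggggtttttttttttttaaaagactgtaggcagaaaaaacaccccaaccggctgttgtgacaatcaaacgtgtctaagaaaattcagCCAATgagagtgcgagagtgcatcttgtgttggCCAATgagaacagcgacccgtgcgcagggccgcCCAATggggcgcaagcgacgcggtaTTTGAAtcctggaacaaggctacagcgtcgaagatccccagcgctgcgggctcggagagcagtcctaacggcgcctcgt
UHRF1 held the E2F word at positions -104 and -14 from the start and CCAAT at -86, CDCA3 held TTTGAA at -3 with 1 base between it and an E2F word on the opposite strand, and CCNB2 held TTTGAA at -29 downstream of 4 CCAAT words. CCNB2 fell by 0.28. No 2 of the words overlapped in these promoters.

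Other genes of growth control moved in both directions. Of 20 G1 cyclins, inhibitors and pocket proteins, 7 rose and 6 fell. CCNG1 and CCNG2, cyclins linked to growth arrest, rose by 1.10 and 1.12, the latter from 8.76, 8.04, 8.56, 7.56 and 7.24 on day 2 to 19, 15, 17.1, 17 and 19.9 CPM on day 4. The D cyclins CCND1, CCND2 and CCND3 fell by 0.49, 0.43 and 0.46, and the pocket protein RBL1 by 0.84. Replication-dependent histone genes went against the replication list, with 19 of 66 higher, none lower and 47 not passing, and a summed level of 328 to 448 CPM on day 2 against 556 to 632 on day 4. Their mRNAs normally lack a poly(A) tail, and many are near-identical copies whose reads cannot be assigned with certainty. HIST1H1C and HIST2H2BE rose by 1.01 and 0.73. Of 10 genes of MYC factors, their partner MAX and its other binding proteins, 5 rose and 1 fell. MYC rose by 0.25, and the other rises were those of MXD1, MXD4, MXI1 and MNT, which oppose MYC, by 0.36, 0.41, 0.51 and 0.33. MAX did not pass the test (Q = 1.00), and MYCN fell from 5 to 11 counts to 0 to 2 counts a library.

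Cholesterol and fatty acid synthesis formed a second group that fell together, with 28 of 33 genes lower and 1 higher (median -0.60). HMGCS1, which feeds the mevalonate pathway, was at 176, 167, 169, 183 and 171 on day 2 and 70.4, 75.4, 69.2, 74.8 and 85 CPM on day 4 (log2 fold change -1.21 ± 0.066 SE, Q = 1.13e-17). MSMO1, EBP and SQLE, later sterol enzymes, fell by 1.07, 1.04 and 1.03, and the fatty acid enzymes FASN and ACLY by 0.94 and 0.76. SREBF1, which encodes a factor that activates such genes, was the one that rose (log2 fold change 0.21 ± 0.052 SE, Q = 0.00186), and SREBF2, its sterol-directed relative, was at 0.083 (Q = 0.215). Of 19 genes of purine and pyrimidine synthesis, 12 fell and 1 rose, with NME1 lower by 0.96 and IMPDH2 higher by 0.34. The sterol and fatty acid list stood at 1.18 ± 0.037 above day 0 on day 2 and at 0.49 ± 0.12 on day 4.

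Proteasome subunits fell by small amounts. Of 19 subunits of the 19S regulatory particle 14 fell, and of 14 constitutive subunits of the 20S core 8 fell, with no subunit rising and medians of -0.27 in each. PSMD1 was at 129, 134, 131, 145 and 129 on day 2 and 86.4, 81.3, 89.8, 93.2 and 80.8 CPM on day 4 (log2 fold change -0.63 ± 0.069 SE, Q = 1.11e-09) and PSMB3 fell by 0.55. Of the extraction complex that acts with the proteasome, UFD1L fell from 28.4, 26.5, 23.2, 25.6 and 32.7 on day 2 to 11.8, 14, 12.9, 13.6 and 13.6 CPM on day 4 (log2 fold change -1.04 ± 0.11 SE, Q = 1.80e-10) and VCP by 0.25, while NPLOC4 did not pass (log2 fold change -0.078 ± 0.053 SE, Q = 0.306). With all biotypes of the symbol added, the value of UFD1L was -0.68 and that of VCP was -0.22. Protein-coding transcripts held 48.2% of the counts of VCP on day 2.

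Of 30 genes of heat shock chaperones and their cofactors, 25 were lower and 2 higher (median -0.49). Most act in the cytosol, but the list includes the transcription factor HSF1, which did not pass, and the mitochondrial HSPD1 and HSPE1, which fell. HSPH1, a nucleotide exchange factor of HSP70, was at 75.9, 103, 115, 124 and 125 on day 2 and 65.5, 41.9, 49.1, 59.4 and 53.4 CPM on day 4 (log2 fold change -1.01 ± 0.12 SE, Q = 2.65e-09), and HSP90AA1 and HSPA8 fell by 0.84 and 0.60. HSPA4L fell by 1.22, with 1 low day 4 library. DNAJB2 and DNAJB4 were the members that rose, by 0.70 and 0.66. Of 28 NRF2 targets and genes of glutathione and thioredoxin, 11 fell and 4 rose. NQO1, a quinone reductase, was at 14.6, 15.3, 16.4, 15.6 and 13.8 on day 2 and 5.74, 6.62, 7.47, 9.19 and 6.91 CPM on day 4 (log2 fold change -1.08 ± 0.14 SE, Q = 2.10e-08), and the ferritin light chain FTL, TXNRD1 and SRXN1 fell by 0.89, 0.49 and 0.69. The rises included SLC7A11 and SQSTM1, an autophagy receptor, at 0.62, and HMOX1 did not pass (log2 fold change -0.034 ± 0.17 SE, Q = 0.964). Of 44 autophagy genes 16 rose and 4 fell, GABARAPL1 the most, at 2.73, 4.5, 3.49, 7.87 and 2.83 on day 2 and 9.88, 7.88, 12.1, 10.5 and 14.5 CPM on day 4 (log2 fold change 1.36 ± 0.22 SE, Q = 2.33e-06), while lysosomal genes were divided into 12 rises and 15 falls among 42.

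Cytosolic ribosomal protein mRNAs rose nearly all together and by small amounts, with 76 of 83 higher, 2 lower and a median of 0.40. None passed the fold cutoff. Their summed level was 66849 to 82015 CPM on day 2 and 96902 to 104040 on day 4, so the days did not overlap. RPL12 was at 722, 773, 683, 615 and 702 on day 2 and 1344, 1234, 1359, 1308 and 1231 CPM on day 4 (log2 fold change 0.89 ± 0.056 SE, Q = 6.81e-16). The 2 that fell, RPL39L and RPS27L, are paralogs of standard ribosomal proteins, at -0.57 and -0.27. Genes for making ribosomes went the other way, with 38 of 48 lower and 3 higher (median -0.42). UTP20, a processing factor of the small subunit, was at 87.6, 90.7, 95, 103 and 86.8 on day 2 and 39.8, 38.6, 48.6, 46.7 and 46.3 CPM on day 4 (log2 fold change -1.07 ± 0.072 SE, Q = 2.45e-15), while POLR1D, a subunit of RNA polymerases I and III, rose by 0.58. Each direction held without TMM factors and with the RLE factors of DESeq2.

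**Figure D5:**
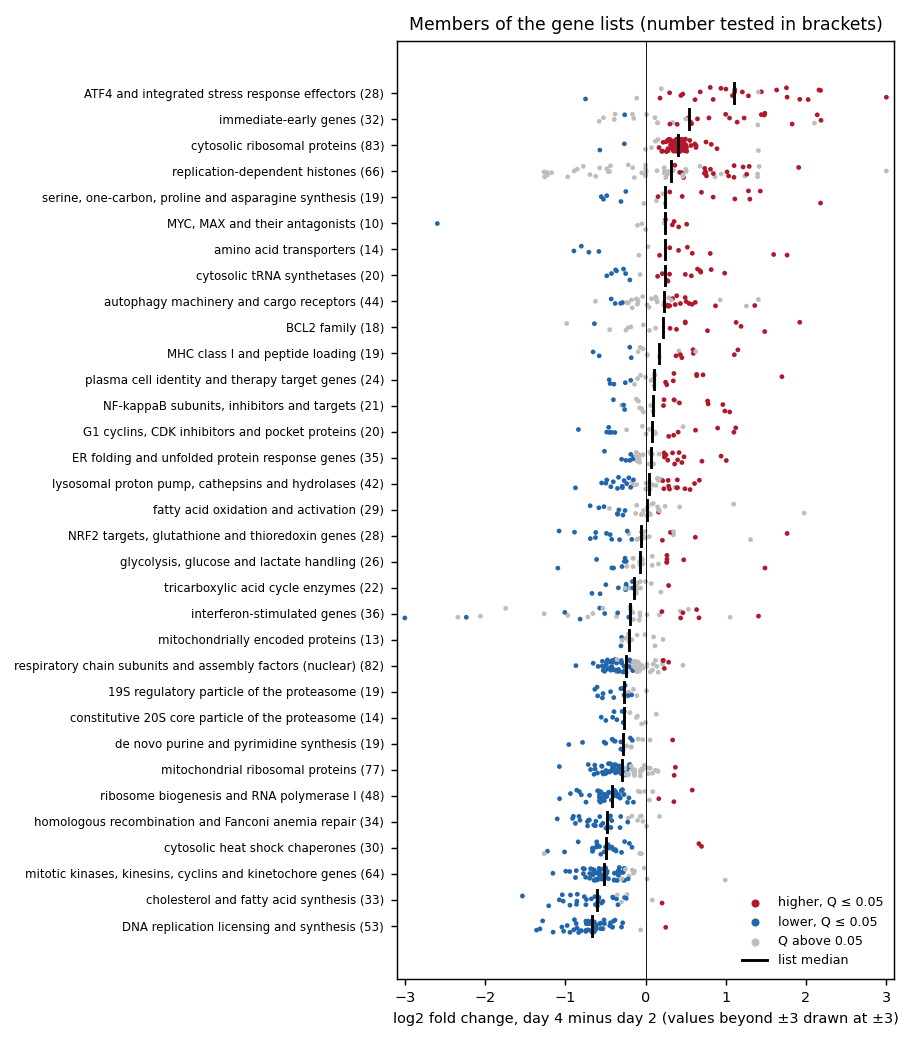
Log2 fold change (day 4 minus day 2, horizontal axis) of each member of the gene lists with 10 or more members tested (rows, with the number tested), coloured by direction where Q ≤ 0.05, with the list median as a black bar. The ATF4 list lies at the top with a median of 1.10 and DNA replication at the bottom with -0.67, and ribosomal proteins form a narrow band around 0.40.

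Mitochondrial genes encoded in the nucleus drifted down. Of 74 respiratory chain subunits 44 fell and 4 rose (median -0.26), with 1 more fall among 8 assembly factors and readthrough entries listed with them, and of 77 mitochondrial ribosomal proteins 44 fell and 2 rose (median -0.30). NDUFA4, a subunit of the last complex, was at 179.7, 181, 160.4, 170.0 and 162 on day 2 and 98.5, 96.3, 94.1, 99.3 and 79.1 CPM on day 4 (log2 fold change -0.87 ± 0.071 SE, Q = 5.11e-13), NDUFB8 of complex I fell by 0.24, and SDHA, the catalytic subunit of complex II, rose by 0.29. Of the 13 proteins encoded in mitochondrial DNA, 2 were lower, and 0 were lower without replicate 2 of day 2, without replicate 3 of day 4 or without replicate 5 of day 4. Among 22 genes of the tricarboxylic acid cycle 9 fell and 1 rose, and among 29 of fatty acid oxidation and activation 8 fell and 1 rose (median 0.015). Of these 8, 4 were the acyl-CoA synthetases ACSL1, ACSL3, ACSL4 and ACSL5, which activate fatty acids for oxidation and for lipid synthesis alike.

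Genes of glucose use were mixed, with 6 of 26 higher and 8 lower. TXNIP, which restrains glucose uptake, rose without overlap, from 1478, 1068, 1042, 997 and 1408 on day 2 to 1800.3, 2215, 1931, 1798 and 1996 CPM on day 4 (log2 fold change 0.70 ± 0.088 SE, Q = 2.02e-08). Its relative ARRDC4, which responds to the same MondoA factor, rose by 0.69. For SLC2A1, the main glucose transporter, the values were 89.3, 92.1, 86.4, 90.5 and 95.3 on day 2 and 73, 66.7, 81.7, 82.5 and 81.5 CPM on day 4 and the test was not passed (log2 fold change -0.23 ± 0.14 SE, Q = 0.249), although every day 4 library lay below every day 2 library. In fits of the libraries of days 2 and 4 alone it passed, with a fall by 0.22. Protein-coding transcripts held 48.2% of the counts of SLC2A1 on day 2 and 46.3% on day 4. Over all biotypes of the symbol its log2 fold change was -0.17 (edgeR Q = 0.239). SLC2A3, a transporter of high affinity, rose from 5.02, 3.22, 4.17, 4.32 and 5.19 on day 2 to 11.8, 8.99, 16.8, 13.6 and 9.32 CPM on day 4 (log2 fold change 1.49 ± 0.24 SE, Q = 3.77e-06). Over all biotypes the log2 fold change of SLC2A3 was 1.21. Its protein-coding share of counts went from 68.5% on day 2 to 84.2% on day 4. The enzymes PGAM1, PKM and LDHA fell by 0.61, 0.42 and 0.26, and TIGAR, which lowers glycolytic flux, by 1.09.

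Genes of antigen presentation and of the B lineage gave smaller groups. Of 19 genes of MHC class I and its peptide loading 7 rose and 4 fell, with HLA-E, a ligand of natural killer cell receptors, at 230.4, 267, 235, 204 and 247 on day 2 and 526, 501, 567, 495 and 539.6 CPM on day 4 (log2 fold change 1.15 ± 0.061 SE, Q = 4.57e-18) and HLA-B and B2M higher by 0.59 and 0.45. HLA genes are similar and polymorphic, so counts can be shared among them. PSME2, a proteasome activator subunit, fell by 0.65. Of 36 interferon-stimulated genes 6 rose and 8 fell, without a common direction: OAS1 was at 8.18, 12.8, 10.9, 6.48 and 7.55 on day 2 and 22.9, 24.1, 26.6, 26.9 and 23.7 CPM on day 4 (log2 fold change 1.41 ± 0.14 SE, Q = 1.43e-10), and MX1 and OAS3 fell by 0.82 and 1.01. Among 21 genes of NF-kappaB, 9 rose and 3 fell, and BCL3, RELB and CD40 rose by 1.05, 0.96 and 0.99. Of 24 genes of plasma cell identity and of therapy targets 8 rose and 5 fell. TNFRSF17, which encodes the therapy target BCMA, was at 77.6, 86, 81.6, 78.3 and 80.9 on day 2 and 55.8, 62.3, 61.1, 62.7 and 53.5 CPM on day 4 (log2 fold change -0.45 ± 0.088 SE, Q = 5.94e-05), SDC1 fell by 0.25, and CD74 and JCHAIN rose by 0.64 and 0.64.

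Some of the largest changes belonged to none of these groups. CYP1A1, the monooxygenase induced through the aryl hydrocarbon receptor, was at 9.62, 8.15, 8.0, 8.33 and 8.81 on day 2 and 70.6, 68.6, 66.8, 62.9 and 64.1 CPM on day 4 (log2 fold change 2.96 ± 0.43 SE, Q = 4.18e-07) and had been at 6.62 on day 0, so this rise led away from the starting level. PIGR, the receptor that carries IgA across epithelia, likewise went from 2.3, 2.57, 2.03, 2.16 and 1.89 on day 2 to 10.4, 10.4, 10.5, 12 and 7.94 CPM on day 4 (log2 fold change 2.21 ± 0.21 SE, Q = 2.81e-11), against 2.30 on day 0. NDRG1, a gene of growth arrest and hypoxia, had the largest rise in CPM of the entries past the fold cutoff, at 699.7, 671, 620.0, 529 and 632 on day 2 and 1415, 1286, 1508, 1305 and 1366 on day 4 (log2 fold change 1.13 ± 0.11 SE, Q = 5.57e-11). DUSP26, CD79A, a component of the B cell receptor, and MYOC rose by 3.29, 2.18 and 2.17 from at most 1.89 CPM in any day 2 library. For MYOC the value over all biotypes of the symbol was 1.72. Its protein-coding share of counts went from 70.1% on day 2 to 95.2% on day 4. CHRD also rose, by 2.73, but 22.9% of the counts of its symbol on day 2 were in this entry, the value over all biotypes was 1.21, and without replicate 2 of day 2 it was 5.23.

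Among the falls, CLU, the secreted chaperone clusterin, was at 321, 331, 283, 275 and 304 on day 2 and 109, 90, 103, 98.9 and 95.8 CPM on day 4 (log2 fold change -1.61 ± 0.09 SE, Q = 2.29e-17) and had been at 2.04 on day 0. IGFBP3, a binding protein of insulin-like growth factors, had the largest fall in CPM of those past the fold cutoff, at 1157, 1154, 1098, 1156 and 1118 on day 2 and 336, 375, 301, 339.5 and 293 on day 4 (log2 fold change -1.79 ± 0.087 SE, Q = 4.10e-19). TFRC, the transferrin receptor, was at 379, 380.2, 397, 414 and 410.3 on day 2 and 108, 123, 118, 137 and 127 CPM on day 4 (log2 fold change -1.69 ± 0.061 SE, Q = 1.74e-23), below its day 0 mean of 149. CSRP1, a LIM protein, fell by 1.05. DEFB4A, an antimicrobial peptide, was at 2.87, 3.0, 2.14, 1.23 and 2.36 on day 2 and 0.159, 0.473, 0, 0.317 and 0.518 CPM on day 4 (log2 fold change -2.94 ± 0.50 SE, Q = 1.18e-05), and CALML3, KRT6B and KRT81 fell by 2.62, 2.53 and 2.19, with at most 9.01 CPM in any library. Of the 7 epithelial and stromal markers tested, none fell and KRT8, KRT18 and PECAM1 rose, by 0.48, 0.50 and 1.65. PECAM1, listed with them, marks endothelium and blood cells and not epithelium. RAB39A and GALNT15 fell by 2.17 and 2.02, and the log2 fold change of GALNT15 over all biotypes was -1.75. For XAF1, CGN, FRMD1 and CAMKV the size depended on which transcripts were counted, since the values of -3.47, -2.91, -2.65 and -2.46 became -0.96, -2.07, -1.30 and -1.56 over all biotypes of the symbol.

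Entries of the other transcript biotypes, 47718 with a count, were rarely called, with 94 higher (0.197%) and 70 lower (0.147%) by the same edgeR test. They were tested without a filter on level, while protein-coding entries held 81.4% to 84.9% of the counts. Low counts limit what can be called among them, so these shares cannot be set against those of protein-coding entries. Of the 8883 retained introns among them, which are transcripts that keep an intron, 42 were higher (0.473%) and 19 lower (0.214%). Retained introns held 4.65% to 5.82% of all counts on day 2 and 5.22% to 6.27% on day 4.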

How the data were processed

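RNA libraries of RPMI-8226 cells were made with a directional kit and sequenced as paired ends. The authors deposited estimated counts of kallisto 0.44.0 on GENCODE transcripts (GRCh38.p12), adjusted for GC content and summarized with adjustment for transcript length. They are whole numbers per gene symbol and transcript biotype, not scaled for library size, so an entry holds only the protein-coding transcripts of its symbol and reads can be split between biotypes. The submitters' processing notes also name DESeq2 1.25.8 and R 3.5.0.

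The 17999 protein-coding entries with a count were fitted with edgeR 4.0.16 (glmQLFit and glmQLFTest, TMM) in R 4.3.3, with day as a factor over all 35 libraries and without a covariate. SE is the absolute log2 fold change divided by the square root of F. The call was Q ≤ 0.05 and a fold change above 2, as in the study's main text. The test was first tested on simulated data. CPM used TMM-scaled library sizes, summed over protein-coding entries for these and over the other biotypes for theirs. Entries with enough counts are the 12301 that passed filterByExpr. No 2 libraries agreed within sampling noise. No batch or date was given.

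The 40 gene lists, the comparison and the named genes were chosen with earlier results of these data known, so a list's direction is not independent evidence. Named were the 10 largest rises and falls among called entries whose mean log2 CPM exceeded 0 and whose days did not overlap, the 5 largest rises and falls in CPM, the extremes of each list, and genes the study names; some of these are not reported here. Other members of a list are given as examples, chosen after their values were seen. Promoters came from RefSeq (GRCh38.p14), matched for 14186 of 17999 symbols. The words searched on both strands were CCAAT of NF-Y, TTTGAA of the cell cycle homology region, TTCCCGC of E2F, TGATGCAA of ATF4 and C/EBP, CACGTG of E-boxes, TGACNNNGC of the antioxidant element, GGGCGG of SP1 and TCACNCCAC of the sterol element. E2F words on the reverse strand can overlap that of SP1.

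Alternatives were filterByExpr, RLE factors, no factors, the replicate number as a block, fits of days 2 and 4 only, DESeq2 1.42.0, limma-voom (limma 3.58.1), a 4-fold cutoff and each library left out. Counts summed over the biotypes of a symbol were added after the data had been seen.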

Additional observations from a re-analysis of the deposited data

Results flagged for a closer look

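In 13 of 232 groups of 5 libraries, 1 library lay far from the other 4 by Dixon's ratio of gap to range, whose critical value of 0.71 chance passes in about 1 of 20 groups. On day 2, the CHRD value of replicate 2 (1.82 CPM) was high against 0 to 0.31 (ratio 0.831), PSMA1 was low in replicate 3 (62.4 CPM against 69.9 to 71.1, ratio 0.861), as was POLR1D in the same library (64.4 against 68.2 to 69.6, ratio 0.729), and MT-ND6 was low in replicate 5 (1614 CPM against 1873 to 1943, ratio 0.789). On day 4, KRT81 was high in replicate 3 (3.02 CPM against 0.951 to 1.38, ratio 0.792), HSPA4L was low in replicate 1 (3.03 against 5.75 to 6.02, ratio 0.908), and NDUFA4 (79.1 against 94.1 to 99.3, ratio 0.741) and MRPL1 (5.87 against 8.91 to 9.98, ratio 0.739) were low in replicate 5. HIST2H3PS2 and CD3D had a count in 1 library of day 2 (ratio 1 in each), and CSF1R had counts in 1 library of day 2 (ratio 1) and in all but replicate 5 of day 4 (ratio 0.732). The share of the 10 most abundant entries on day 2, 9.80% to 10.6%, was set apart by its lowest library (ratio 0.716).

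Entries of other transcript biotypes, which the gene lists do not use, also differed between the days, 94 higher and 70 lower on day 4 at Q ≤ 0.05 and a fold change above 2.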

How the results depend on the processing

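Of the counts of entries and of list members that answer the comparison, all but those named here stayed within 1.5 times their value under every alternative, and no fold change that passed the test and is named in the text reversed. With filterByExpr, which tested 12301 entries, 120 entries were called lower in place of 183. A cutoff of 4-fold left 102 higher and 49 lower. Leaving out each library gave 340 to 401 higher and 130 to 182 lower. The count of mitochondrially encoded genes that were lower (2 of 13) was 4 with counts summed over biotypes, 4 without scaling factors, 7 in a fit of days 2 and 4 only, 8 in that fit with a replicate block, and 0 to 3 with a library left out. Replicate numbers did not pair the libraries: deviations of same-numbered libraries of the 2 days correlated at 0.0892, -0.0524, 0.0183, -0.0629 and -0.00731, and only replicate 1 of day 2 correlated best with its own number. With the replicate block 344 entries were higher and 167 lower, and with the block in days 2 and 4 only 290 and 158. DESeq2 called 368 and 143 and limma-voom 424 and 205. MT2A, called higher on 0 to 10 counts a library, lost its call under 8 of the 19 alternatives. Beside those in the report, calls of HADHB, HIST1H2BO, MT-ND3 and CD14 were lost with some libraries left out. The causes were not tested. At 6791179 to 10962890 counts a library, entries of a few counts cannot show moderate differences.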

Other observations

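Among entries that are not protein-coding, the long noncoding RNA H19, an imprinted transcript of fetal growth, fell from 182 ± 48 to 50.7 ± 7.4 CPM (mean ± SD, n = 5, log2 fold change -1.85 ± 0.23 SE, edgeR Q = 2.58e-06). A retained-intron form of ASNS rose, as did its protein-coding entry, and went from 10.1 ± 4.2 to 35.5 ± 5.2 CPM (log2 fold change 1.80). All CPM in this paragraph relate to the counts of the other biotypes alone and are not on the scale of the protein-coding entries. Nonsense-mediated decay forms of single genes moved in both directions, with NAP1L1 higher (8.60 ± 5.2 to 57.9 ± 11 CPM) and SON lower (210 ± 63 to 22.3 ± 31 CPM, a spread on day 4 above its mean). Of 54 variable segments of immunoglobulins tested, 3 of the kappa chain were lower, IGKV3D-7, IGKV1D-43 and IGKV1D-8, with log2 fold changes of -3.79, -3.45 and -2.11. Reads can be shared among such similar segments and among isoforms of a gene, and the assignment was not tested here. SNORD3A, the 1 of 275 small nucleolar RNA entries that was called, went from 125 ± 32 to 38.7 ± 3.8 CPM (log2 fold change -1.69). Of 175 ribosomal RNA entries 3 were called, all copies of the 5.8S RNA. RNA5-8SN3 went from 370.3 ± 59 to 105 ± 40 CPM (log2 fold change -1.81), with 2700 counts on day 2 and 712 on day 4. RNA5-8SN4 and RNA5-8S5 had 1350 and 356 counts each, so the copies cannot be read as separate measurements.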
